A study of Mus musculus with 12 samples.

Results

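The MS4A genes encode small membrane-spanning proteins, and 7 of them were followed here in mouse skin after an RNA adjuvant: Ms4a4a, Ms4a4b, Ms4a4c, Ms4a6b, Ms4a6c, Ms4a6d and Ms4a7. They were chosen by symbol, with earlier results of these data known. The shares of calls below therefore describe these 7 genes and are no independent test of the family. A probe set counted when the platform annotation gave it a single gene symbol and that symbol was one of these names, and the probe set with the highest mean over the 12 arrays would have been kept had there been several. Each of the 7 genes had 1 such probe set, which makes 7 of the 19938 genes measured. The arrays were Affymetrix Mouse Gene 1.0 arrays of skin biopsies from female Balb/c mice, a common inbred strain, in 4 groups of 3: mice left untreated, and mice whose skin was taken 1.5 h, 6 h or 24 h after RNAdjuvant, an RNA-based immune stimulant, was given into the dermis at a labelled dose of 25 mg. No other genetic change or agent is named for any group. The untreated mice were the only controls, a group given carrier alone was not analysed here, and the sources used here give neither the age of the mice nor the body site.

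In mouse and human the MS4A genes lie side by side on a single chromosome, and most are used by particular blood cells. The best known are Ms4a1, which encodes CD20 of B cells, and Ms4a2, which encodes the beta chain of the high-affinity IgE receptor of mast cells. Several of the others sit beside signalling receptors: mouse Ms4a4b, a protein of T cells and natural killer cells, binds the co-stimulatory receptor GITR (Tnfrsf18), as does Ms4a6b, and human MS4A4A of macrophages associates with the fungal receptor Dectin-1 (Clec7a). Ms4a6c and Ms4a6d are transcribed in monocytes and macrophages, and Ms4a7 in macrophages.

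All levels are log2 intensities and all changes are differences of log2 group means with 95% intervals. The deposited values were computed by the authors with RMA, per the submitters' processing notes. A gene was called when its limma p, adjusted across all 19938 genes (Benjamini-Hochberg), was under 0.05. A probe set has its own affinity, so levels were not compared between genes, and an array of whole skin cannot tell more cells of a type from more RNA per cell. The labels call the samples of a group biological replicates. Correlations between arrays ran from 0.980 to 0.987 within groups and from 0.961 to 0.986 between groups. The first 1.5 h array and the first 6 h array stood apart: Glycam1, a gene of lymph node vessels, read 11.38 and 10.88 there against 3.87 to 4.46 on the other 10 arrays. These arrays also had the highest means of the B cell list, at 5.93 and 5.63 against 4.08 to 4.39 on the others, and of the T cell list, at 7.20 and 7.21 against 6.22 to 6.71. Each count of MS4A genes below was also made without both arrays.

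The 7 genes split into 5 that rose and 2 that were not called at any time. Ms4a4b, Ms4a4c, Ms4a6b, Ms4a6c and Ms4a6d were higher than in untreated skin at 6 h and at 24 h, and Ms4a4a and Ms4a7 were not called. At 1.5 h none of the 7 was called higher, against 0.612% of all genes, and 3 had an unadjusted p under 0.05 with a higher level, against 8.20% of all genes. At 6 h 5 of the 7 were called higher, against 3.38% of all genes, and at 24 h again 5 of 7, against 2.55%. The median change of the 7 genes was 0.48 at 1.5 h, 1.43 at 6 h and 2.18 at 24 h, beside medians of 0.02, -0.04 and 0.00 over all genes. An F test over the 3 times called the same 5 genes, against 11.4% of all genes. Without the first 24 h array that F test called 6 genes, with Ms4a4a added. Without the arrays high in Glycam1 the same 5 were called at 6 h and at 24 h.

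**Figure D1:**
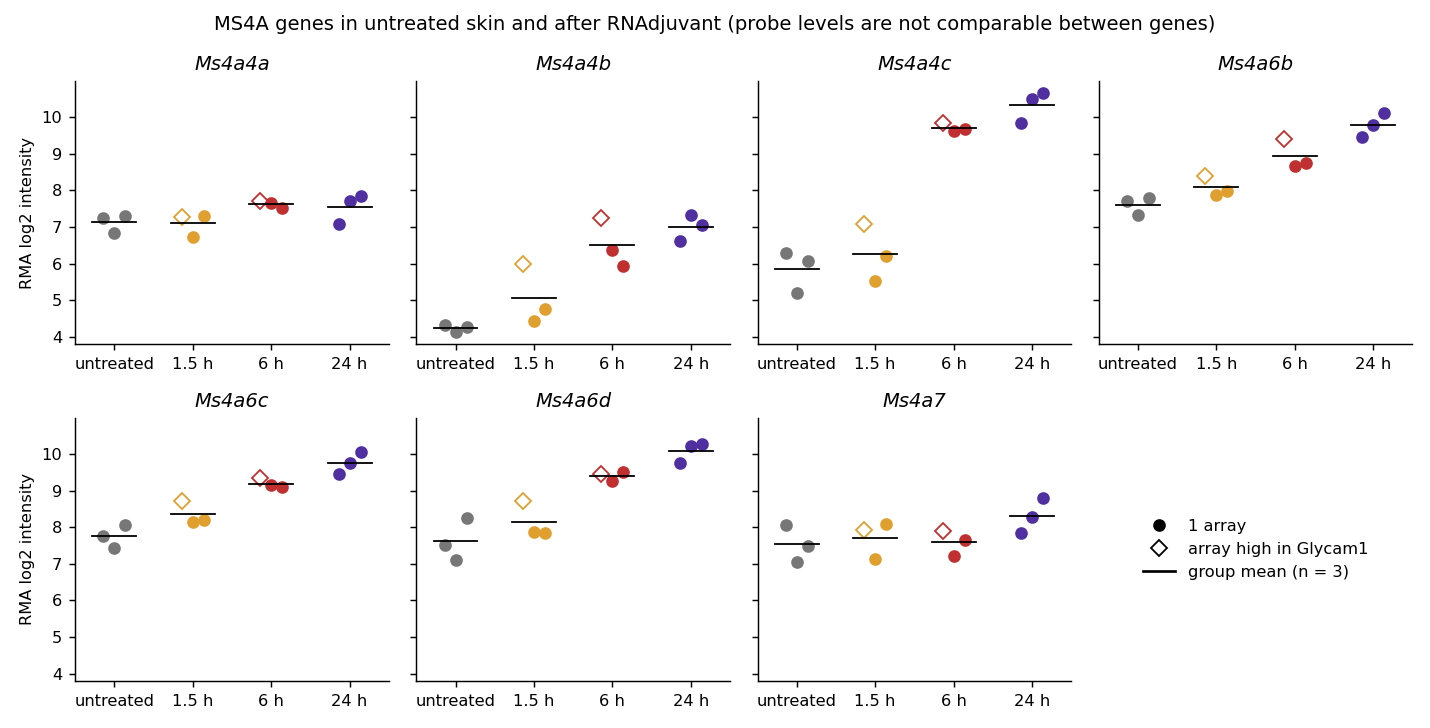
Log2 intensity of the 7 MS4A genes on each of the 12 arrays, by group from untreated to 24 h, with the group mean as a line and the arrays high in Glycam1 as open diamonds. For Ms4a4b, Ms4a4c, Ms4a6b, Ms4a6c and Ms4a6d all 6 h and 24 h arrays lie above all untreated arrays, while the 24 h and untreated arrays overlap for Ms4a4a and Ms4a7.

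Ms4a4c changed most. Its level was 6.30, 5.21 and 6.07 in untreated skin, 7.09, 5.52 and 6.22 at 1.5 h, 9.85, 9.61 and 9.68 at 6 h, and 9.84, 10.50 and 10.66 at 24 h. All 6 arrays of 6 h and 24 h lay far above the other 6, and the untreated and 1.5 h arrays overlapped, with the first 1.5 h array (7.09) above all untreated ones. Against untreated skin the change was 3.85 at 6 h (3.10 to 4.61; adjusted p = 6.98e-06), a 14.4-fold rise, and 4.48 at 24 h (3.72 to 5.23; adjusted p = 2.91e-06), a 22.3-fold rise. Ordered by the size of the rise, Ms4a4c was gene 28 of 19938 at 6 h and gene 5 at 24 h. At 1.5 h its change was 0.42 (-0.33 to 1.17; adjusted p = 0.570), and without the array high in Glycam1 it was 0.01.

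Ms4a4b read 4.34, 4.13 and 4.27 in untreated skin, 6.00, 4.45 and 4.76 at 1.5 h, 7.25, 6.37 and 5.95 at 6 h, and 6.61, 7.32 and 7.06 at 24 h. All 3 untreated arrays lay below the other 9, and the highest arrays at 1.5 h and 6 h were those high in Glycam1. The gene rose 4.83-fold at 6 h (2.27, 1.49 to 3.06; adjusted p = 0.00172) and 6.71-fold at 24 h (2.75, 1.96 to 3.53; adjusted p = 0.000435). Without the arrays high in Glycam1 the 6 h rise was 3.76-fold (1.91; adjusted p = 7.31e-05). At 1.5 h the change of 0.82 (0.04 to 1.61; adjusted p = 0.260) was not called, although the groups did not overlap, as was so for 3 of the 7 genes and for 11.8% of all genes in the upward direction. It was 0.36 without the first 1.5 h array. With all values under a log2 intensity of 5 raised to 5, the 6 h change of Ms4a4b was 1.52 and was not called (adjusted p = 0.0599). Its untreated level lies below that value, and the cause of the lost call was not tested.

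Promoters of the pair that rose most are shown because their sequences are alike. Each line gives the 250 bases before the annotated start from RefSeq, build GRCm38.p6, 5′ to 3′ on the plus strand, with GAGGAA, a core bound by the myeloid factor PU.1, in capitals. The Ms4a4c window is chr19:11407411-11407660 and the Ms4a4b window is chr19:11443308-11443557.
Ms4a4c: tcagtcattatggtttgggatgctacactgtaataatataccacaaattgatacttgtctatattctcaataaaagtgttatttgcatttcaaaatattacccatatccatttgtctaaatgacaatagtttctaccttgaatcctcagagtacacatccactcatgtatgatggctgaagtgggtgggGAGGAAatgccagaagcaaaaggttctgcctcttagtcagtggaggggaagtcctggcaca
Ms4a4b: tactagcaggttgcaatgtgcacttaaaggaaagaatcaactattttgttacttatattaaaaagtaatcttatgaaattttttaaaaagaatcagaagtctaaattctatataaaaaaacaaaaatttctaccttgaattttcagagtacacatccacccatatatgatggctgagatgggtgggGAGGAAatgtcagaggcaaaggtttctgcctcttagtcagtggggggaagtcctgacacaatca
These windows were identical at 80.1% of 231 aligned bases, and their longest shared stretch was 20 bases, ttctgcctcttagtcagtgg. GAGGAA was searched on both strands and stood once in each, starting 61 bases before the start of Ms4a4c and 64 before that of Ms4a4b. The same letters occurred in 23.3% of 32851 promoter windows of this length. They stood in no window of Ms4a4a, Ms4a6b, Ms4a6c or Ms4a7, nor of the further MS4A genes Ms4a4d and Ms4a8a. A match describes letters, not binding.

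All 3 Ms4a6 genes rose, with smaller fold changes than Ms4a4c. Ms4a6d read 7.52, 7.11 and 8.25 in untreated skin, 8.71, 7.86 and 7.83 at 1.5 h, 9.44, 9.27 and 9.51 at 6 h, and 9.75, 10.21 and 10.27 at 24 h. Its 3 arrays at 24 h lay above all 6 h arrays, which lay above all earlier ones. Ms4a6d rose 3.43-fold at 6 h (1.78, 1.19 to 2.37; adjusted p = 0.00124) and 5.45-fold at 24 h (2.45, 1.86 to 3.04; adjusted p = 8.75e-05). At 1.5 h its change was 0.50 (-0.09 to 1.09; adjusted p = 0.361), with overlap.

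Ms4a6b read 7.70, 7.33 and 7.79 in untreated skin, 8.40, 7.88 and 7.99 at 1.5 h, 9.40, 8.67 and 8.76 at 6 h, and 9.45, 9.79 and 10.12 at 24 h. Each later group lay wholly above the one before it. The rise was 2.52-fold at 6 h (1.34, 0.86 to 1.81; adjusted p = 0.00203) and 4.53-fold at 24 h (2.18, 1.71 to 2.65; adjusted p = 3.10e-05), and the 1.5 h change was 0.48 (0.01 to 0.95; adjusted p = 0.276). Ms4a6c read 7.77, 7.43 and 8.06 in untreated skin, 8.71, 8.15 and 8.19 at 1.5 h, 9.33, 9.14 and 9.10 at 6 h, and 9.45, 9.74 and 10.06 at 24 h. Its groups were likewise separate at each step. Ms4a6c rose 2.70-fold at 6 h (1.43, 1.02 to 1.85; adjusted p = 0.000371) and 3.97-fold at 24 h (1.99, 1.57 to 2.41; adjusted p = 2.32e-05). At 1.5 h its change was 0.59 (0.18 to 1.01; adjusted p = 0.134), the lowest adjusted p of the 7 genes at that time.

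The upstream sequences of Ms4a6b and Ms4a6c are shown as the most alike among these genes. They are RefSeq windows of 250 bases, build GRCm38.p6, plus strand, at chr19:11518309-11518558 for Ms4a6b and chr19:11469118-11469367 for Ms4a6c. Capitals mark GAAANNGAA, a shortened form of the element GAAA-NN-GAAA bound by interferon regulatory factors.
Ms4a6b: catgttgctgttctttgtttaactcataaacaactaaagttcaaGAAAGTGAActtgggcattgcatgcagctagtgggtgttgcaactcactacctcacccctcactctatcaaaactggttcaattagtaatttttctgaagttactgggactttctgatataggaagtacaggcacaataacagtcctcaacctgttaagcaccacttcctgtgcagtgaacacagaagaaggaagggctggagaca
Ms4a6c: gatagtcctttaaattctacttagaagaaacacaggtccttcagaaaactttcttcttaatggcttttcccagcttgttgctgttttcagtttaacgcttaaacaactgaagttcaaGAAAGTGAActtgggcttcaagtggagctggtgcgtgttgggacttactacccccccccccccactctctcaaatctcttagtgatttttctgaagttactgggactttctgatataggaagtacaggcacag
Of 175 aligned bases 85.1% were identical, and the longest shared stretch was 48 bases. The other 18 pairs of windows among these genes were 49.6% to 64.3% identical. The shortened element read GAAAGTGAA in both, 206 bases before the start of Ms4a6b and 133 before that of Ms4a6c. It was searched on both strands, it lies within the full element wherever that occurs, and it was chosen after the sequences had been seen. It stood in 7.13% of 32851 windows, and once in each of the 2 windows of Ms4a7, a gene that was not called. The windows of Ms4a4a, Ms4a4b and Ms4a4c did not hold it. Nor did those of Ms4a4d and Ms4a8a, further MS4A genes that were called higher at 6 h and 24 h. The full GAAA-NN-GAAA element (2.98% of windows) and TTCNNNGAA, the site of STAT factors (7.02%), were also searched. They were found in no window of the 6 of the 7 genes that the table holds, nor in those of Ms4a4d and Ms4a8a. This says only that these letters are not in these 250 bases. Ms4a6d is not in that table. Probe sequences were not used here, so whether probes for such similar genes also bind each other's transcripts was not tested.

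Both genes that were not called are known from macrophages, as are Ms4a6c and Ms4a6d, which were called. Ms4a4a read 7.26, 6.83 and 7.29 in untreated skin, 7.28, 6.72 and 7.31 at 1.5 h, 7.71, 7.66 and 7.53 at 6 h, and 7.08, 7.70 and 7.84 at 24 h. Its 6 h arrays lay above the untreated ones, and of its 24 h arrays the first lay within the untreated range and the other two above it. Its changes were -0.02 (-0.46 to 0.42) at 1.5 h, 0.51 (0.07 to 0.95) at 6 h and 0.41 (-0.03 to 0.85) at 24 h, with adjusted p-values of 0.965, 0.158 and 0.327. With Ms4a4a, 6 of the 7 genes had groups without overlap at 6 h, against 11.4% of all genes in the upward direction, and at 24 h 5 of the 7, against 10.9%. Ms4a7 read 8.06, 7.04 and 7.49 in untreated skin, 7.91, 7.13 and 8.09 at 1.5 h, 7.90, 7.22 and 7.66 at 6 h, and 7.83, 8.27 and 8.80 at 24 h. Untreated and treated arrays overlapped at every time. Its changes were 0.18 (-0.48 to 0.84), 0.07 (-0.60 to 0.73) and 0.77 (0.11 to 1.44) at 1.5 h, 6 h and 24 h, with adjusted p-values of 0.811, 0.914 and 0.219. These intervals include rises of up to 0.95 for Ms4a4a at 6 h and 1.44 for Ms4a7 at 24 h, so a missed call is not a sign of no change.

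**Figure D2:**
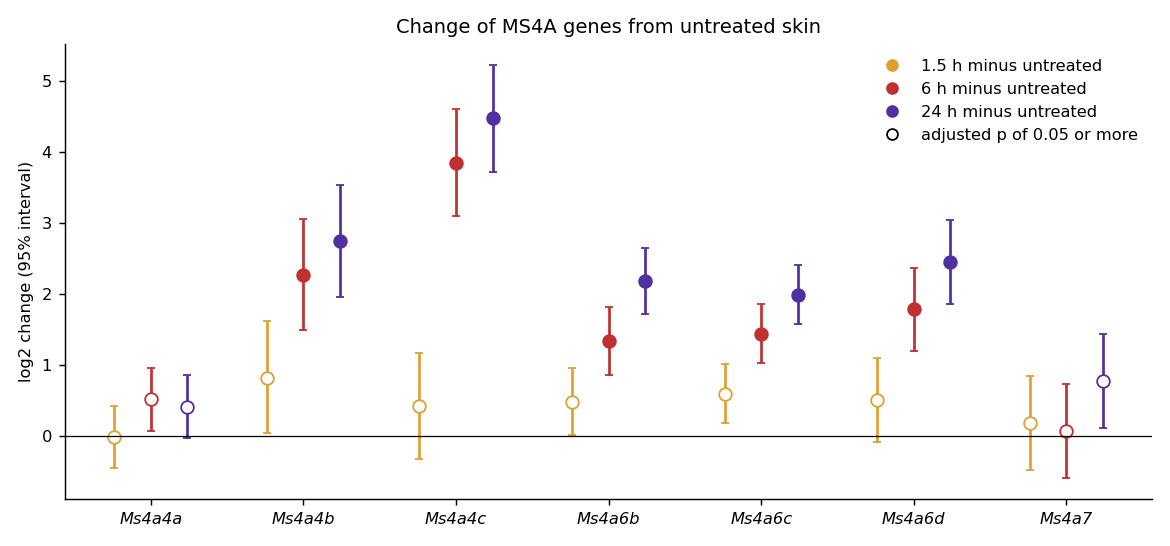
Log2 change against untreated skin at 1.5 h, 6 h and 24 h for each of the 7 genes, with 95% intervals from the limma fit, and open symbols where the adjusted p is 0.05 or more. Ms4a4c stands highest at 3.85 and 4.48, the Ms4a6 genes lie between 1.34 and 2.45 at 6 h and 24 h, and all 1.5 h symbols are open.

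In 3 of the groups the same array was lowest for most of the genes. The second untreated array was the lowest of its group for all 7 genes, and the first 24 h array was the lowest of its group for all 7. The second 1.5 h array was the lowest for 6 of the 7, the exception being Ms4a6d. At 6 h the lowest array was the second for 4 genes and the third for 3. The macrophage list had its lowest untreated mean, 8.32, on that untreated array and its lowest 24 h mean, 8.67, on that 24 h array. The part of these array differences in the results was not tested, but the 5 genes stayed called at 6 h and 24 h whichever single array was left out, with adjusted p-values up to 0.0130 for Ms4a6b at 6 h and 0.00416 for Ms4a4b at 24 h.

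At 6 h against 1.5 h 5 of the 7 genes were called higher, against 5.47% of all genes. Ms4a4c was 10.8-fold higher (3.43, 2.68 to 4.19; adjusted p = 2.58e-05) and Ms4a6d 2.42-fold higher (1.27, 0.68 to 1.86; adjusted p = 0.0108), and both calls held whichever array was left out. Ms4a4b was 2.73-fold higher (1.45, 0.66 to 2.24; adjusted p = 0.0222), Ms4a6b 1.81-fold (0.86, 0.38 to 1.33; adjusted p = 0.0238) and Ms4a6c 1.79-fold (0.84, 0.42 to 1.26; adjusted p = 0.0151). The 6 h arrays lay above all 1.5 h arrays for 5 of the 7 genes, Ms4a4a included and Ms4a4b not, against 13.2% of all genes. The calls of Ms4a4b, Ms4a6b and Ms4a6c were lost when some single arrays were left out, while the changes stayed at 1.09 to 1.92, 0.63 to 1.01 and 0.74 to 1.02 over all 12 arrays left out in turn. The count was 2 without the second 1.5 h array, where Ms4a4b, Ms4a6b and Ms4a6c had adjusted p-values of 0.0910, 0.0897 and 0.0638. It was 3 without the third 1.5 h array (0.0629 for Ms4a4b, 0.0595 for Ms4a6b) and 3 without the first 6 h array (0.0642 and 0.0683). Ms4a4b was also lost without the second 6 h array, at 0.0626.

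After 6 h no further change was called: at 24 h against 6 h none of the 7 genes had an adjusted p under 0.05 in limma, against 2.03% of all genes called higher, and 4 had an unadjusted p under 0.05 with a higher level, against 13.3% of all genes. Ms4a6b came nearest, at 1.80-fold (0.84, 0.37 to 1.32; adjusted p = 0.0531). Its 24 h arrays lay above its 6 h arrays, as did those of Ms4a6c and Ms4a6d, which makes 3 of the 7 genes against 14.2% of all genes. Without the arrays high in Glycam1, Ms4a4b (0.84; adjusted p = 0.0360) and Ms4a6b (1.07; adjusted p = 0.00925) were called, and Ms4a6b was also called without the first 1.5 h array (0.0474), the first 6 h array (0.0141) or the first 24 h array (0.0476). The 5 genes were also separate from 1.5 h at 24 h (9.82% of all genes in that direction). At 24 h against 1.5 h 5 of the 7 were called higher, against 2.24% of all genes, by 16.7-fold for Ms4a4c and 2.63-fold to 3.85-fold for Ms4a4b and the Ms4a6 genes. Only Ms4a4b lost that call when an array was left out, at an adjusted p of 0.0563 without the second 1.5 h array and 0.0578 without the second 24 h array.

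Beyond these 7, another 12 MS4A genes were measured. Of these, Ms4a4d and Ms4a8a were called higher at 6 h and at 24 h. Ms4a4d read 7.60, 7.41 and 7.83 in untreated skin, 8.17, 7.78 and 8.12 at 1.5 h, 9.08, 9.46 and 9.29 at 6 h, and 8.98, 9.25 and 9.17 at 24 h. All 6 h and 24 h arrays lay above the earlier ones. Ms4a4d rose 3.17-fold at 6 h (1.67; adjusted p = 4.72e-06) and 2.87-fold at 24 h (1.52; adjusted p = 2.07e-05). Ms4a8a, found in mouse macrophages activated by the alternative route, read 7.58, 7.77 and 8.49 at 24 h, against 6.42, 6.19 and 6.53 in untreated skin, without overlap, and rose 2.96-fold at 24 h (1.56; adjusted p = 0.000550). Its 6 h rise of 0.80 (adjusted p = 0.0437) was lost without each of 8 arrays, with a highest adjusted p of 0.119 without the second untreated array, and was 0.0945 without the arrays high in Glycam1. Ms4a3, a gene of blood progenitors, was called at 1.5 h alone (0.52; adjusted p = 0.0258), a call lost without each of 4 arrays, and adjusted p was 0.106 without those high in Glycam1.

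The other MS4A genes were not called at any time against untreated skin: Ms4a1, Ms4a2, Ms4a5, Ms4a10, Ms4a12, Ms4a13, Ms4a15, Ms4a19 and Ms4a20. Their changes ran from 0.07 to 0.63 at 1.5 h, from -0.15 to 1.19 at 6 h and from 0.00 to 0.30 at 24 h. Ms4a1 gave the upper end at 1.5 h and 6 h. It read 5.99 and 6.07 on the arrays high in Glycam1 and between 2.70 and 3.92 on the other 10. Of the list of 11 further family genes, 9 were measured, and 1 was called higher at 1.5 h, 2 at 6 h and 2 at 24 h.

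Apart from Ms4a8a, the MS4A genes called at 6 h and 24 h lie in a single stretch. In RefSeq order on chromosome 19 the genes run Ms4a7, Ms4a4a, Ms4a4c, Ms4a4b, Ms4a6c, Gm8369, Ms4a6b, Ms4a4d, Ms4a6d, Ms4a2 and Ms4a3. Every measured MS4A gene from Ms4a4c to Ms4a6d was called higher at 6 h and at 24 h. Gm8369, which lies among them, was not examined here. Ms4a7 and Ms4a4a lie on one side of this stretch, and Ms4a2 and Ms4a3 on the other. None of these 4 was called at 6 h or 24 h. Of the measured MS4A genes outside the stretch only Ms4a8a was called at those times.

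**Figure D3:**
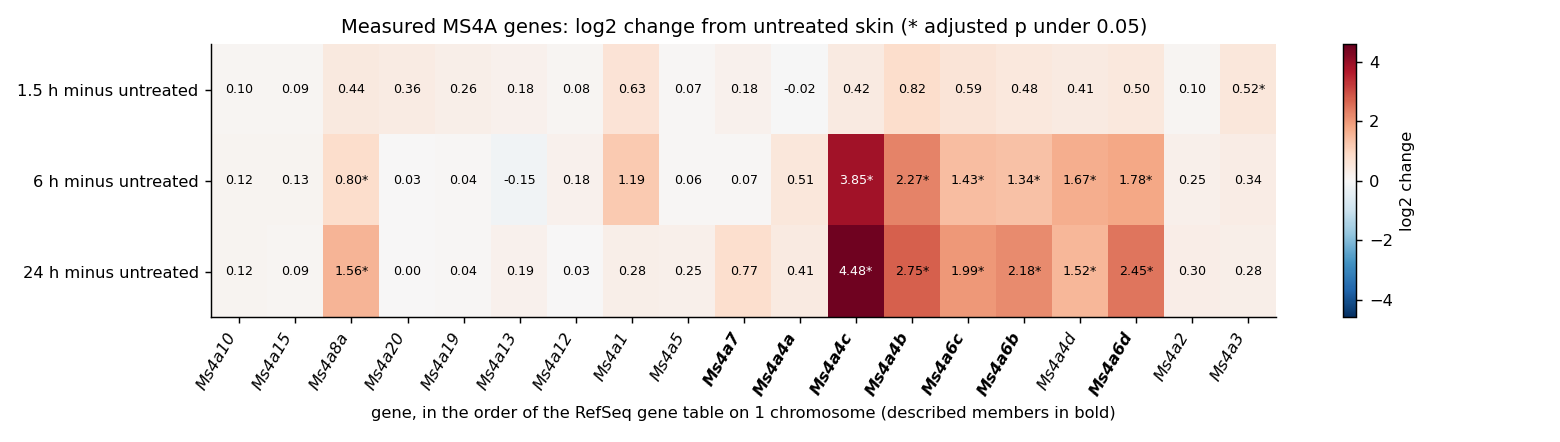
Log2 change against untreated skin of the 19 measured MS4A genes at 1.5 h, 6 h and 24 h, with genes in their RefSeq order along chromosome 19, the 7 genes of the report in bold and a star for an adjusted p under 0.05. Among these measured genes the stars at 6 h and 24 h form an unbroken stretch from Ms4a4c to Ms4a6d, with Ms4a8a apart from it.

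Of 6 genes for partners and distant relatives of MS4A proteins 0 were called in limma at 1.5 h and 0 at 6 h. At each of these times 1 had an unadjusted p under 0.05 with a higher level, against 8.20% and 9.16% of all genes. At 24 h 1 was called higher, against 2.55% of all genes. That was Tyrobp, an adaptor of myeloid receptors, 1.82-fold higher (0.86; adjusted p = 0.0282), a call lost without each of 3 arrays, with a highest adjusted p of 0.128 without the third 24 h array. Tnfrsf18, which encodes the GITR partner of Ms4a4b and Ms4a6b, differed from untreated skin by 0.14, 0.26 and 0.16 at 1.5 h, 6 h and 24 h, with adjusted p-values of 0.591, 0.210 and 0.520. Clec7a, which encodes Dectin-1, differed by -0.09, 0.06 and 0.58, with adjusted p-values of 0.894, 0.906 and 0.266.

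Markers of the cells that carry MS4A proteins differed in how many were called. Over all genes 0.612%, 3.38% and 2.55% were called higher at 1.5 h, 6 h and 24 h. Of 9 measured monocyte markers 2 were called higher at 1.5 h, 5 at 6 h and 6 at 24 h, and the mean of the list per array was 6.15 to 6.47 in untreated skin, 6.60 to 7.25 at 1.5 h, 7.47 to 7.69 at 6 h and 7.67 to 8.08 at 24 h. Clec4e, with a low untreated mean of 3.48, rose 3.14-fold at 1.5 h, 4.55-fold at 6 h and 10.2-fold at 24 h. With the floor of 5 its calls at 1.5 h and 6 h were lost. Fcgr1, the high-affinity IgG receptor, rose 8.88-fold at 6 h and 8.96-fold at 24 h, and Plac8 rose 5.97-fold and 6.59-fold. F13a1 and Cx3cr1 were not called, at 0.706-fold and 1.07-fold at 6 h and 0.601-fold and 1.15-fold at 24 h, and Ccr2 differed by -0.05 at 6 h and was called higher at 24 h (2.42-fold). The 1.5 h call of Plac8 (adjusted p = 0.0310) was lost without each of 4 arrays, the first and second of the untreated and of the 1.5 h group. It was also lost without the arrays high in Glycam1 (0.110), which leaves a count of 1, Clec4e, a gene also in the neutrophil list. The median change of the monocyte list was 0.55, 1.40 and 1.69 at the 3 times, beside 0.02, -0.04 and 0.00 over all genes. Of 10 natural killer cell markers 0 were called at 1.5 h, where 1 had an unadjusted p under 0.05 with a higher level (8.20% of all genes). In that list 4 were called at 6 h and 9 at 24 h, led by granzyme B (Gzmb), at 4.42-fold and 30.6-fold. The means of that list were 4.78 to 4.86 in untreated skin, 4.79 to 5.15, 5.61 to 5.81 and 6.68 to 7.09 at 1.5 h, 6 h and 24 h, and its median changes were 0.19, 0.61 and 1.74. Of 12 neutrophil markers, which share Clec4e with the monocyte list, 4, 2 and 4 were called higher at these times, with median changes of 0.71, 0.59 and 0.69. With single arrays left out these counts ran from 1 to 5, from 2 to 4 and from 2 to 6. The count at 1.5 h was 1 without the second or the third untreated array, that at 6 h was 4 without the second 6 h array or without both arrays high in Glycam1, and that at 24 h was 2 without the second or the third array of the untreated or of the 24 h group. The part of these cells in the rise of the MS4A genes was not tested.

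Of 16 macrophage markers 0 were called in limma at 1.5 h. At that time 2 had an unadjusted p under 0.05 with a higher level, against 8.20% of all genes. In that list 1 was higher (Timd4, against 3.38% of all genes) and 1 lower (Cd163) at 6 h. At 24 h 3 were higher (Adgre1, C1qb, Timd4), against 2.55% of all genes. Except for Timd4 at 6 h, each of these calls was lost without one or more single arrays. The means of the list overlapped in all groups, at 8.32 to 8.97 in untreated skin, 8.82 to 9.16 at 1.5 h, 8.29 to 9.05 at 6 h and 8.67 to 8.99 at 24 h. Of 12 T cell markers 0 were called in limma at each of the 3 times. An unadjusted p under 0.05 was reached by 0 at 1.5 h, by 1 lower marker at 6 h and by 1 higher marker at 24 h. Over all genes 8.20%, 9.16% and 8.27% had such a p with a higher level at these times. Without the arrays high in Glycam1, 2 T cell markers were called at 24 h. Of 9 B cell markers 0 were called at each time, where 1, 1 and 0 had an unadjusted p under 0.05 with a higher level. At 6 h 1 was called without the first 1.5 h array or without both arrays high in Glycam1. The median changes were 0.25, -0.12 and 0.12 for the macrophage list and 0.30, 0.32 and 0.29 for the T cell list. Skin structure markers had means of 10.61 to 11.07 on all arrays.

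**Figure D4:**
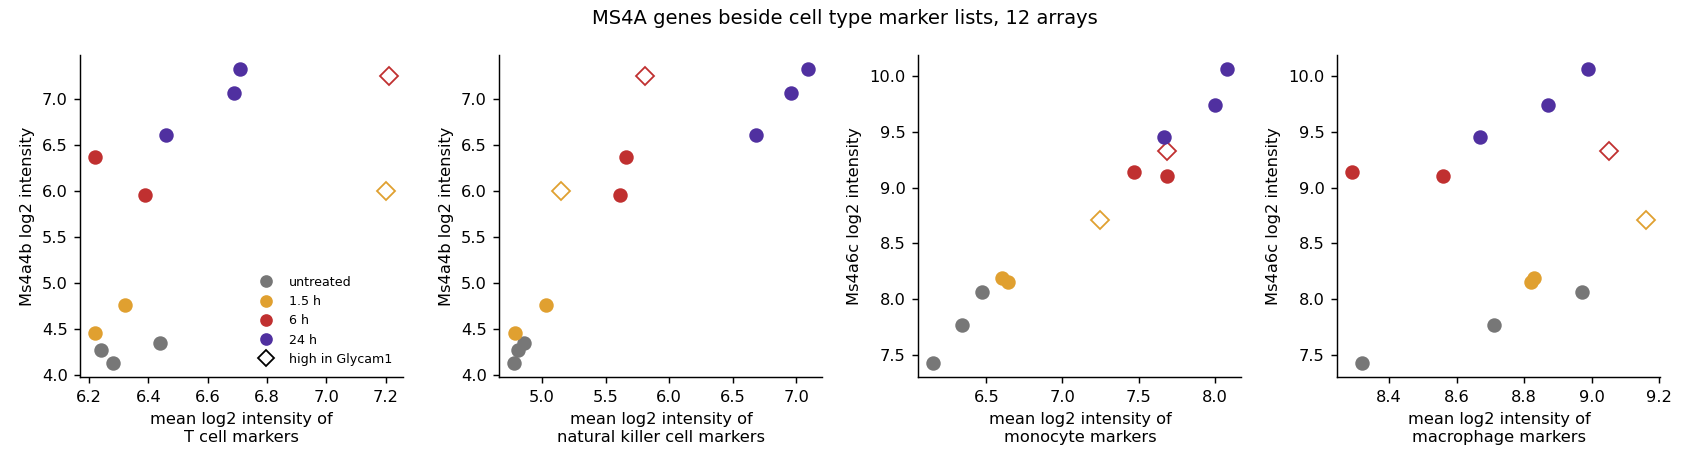
Log2 intensity of Ms4a4b against the mean of the T cell and natural killer cell lists, and of Ms4a6c against the mean of the monocyte and macrophage lists, 1 point per array, coloured by group, with the arrays high in Glycam1 as open diamonds. Across the groups Ms4a6c climbs with the monocyte mean, from 6.15 to 8.08, and not with the macrophage mean, whose groups overlap. Within groups it varies with both, with correlations of deviations from group means of 0.891 and 0.807.

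Across the 12 arrays Ms4a6c and the monocyte mean had a Pearson correlation of 0.987, and Ms4a6c and the macrophage mean one of 0.261. With the natural killer mean Ms4a6c had one of 0.920. These points share their group changes. Taken as deviations from group means, the monocyte and macrophage pairs gave 0.891 and 0.807, so within groups Ms4a6c varied with both lists. On the 10 arrays low in Glycam1 these deviations gave 0.858 and 0.870. For Ms4a4b the deviations correlated at 0.929 with the T cell mean and 0.827 with the natural killer mean, and on the 10 arrays low in Glycam1 at 0.495 and 0.912. With the B cell, neutrophil and dendritic cell means they gave 0.897, 0.893 and 0.834, and on those 10 arrays -0.241, 0.352 and 0.505. Without group means removed, Ms4a4b correlated over the 12 arrays at 0.965 with the monocyte mean, 0.876 with the natural killer mean and 0.611 with the T cell mean. All are descriptions of 12 or 10 arrays that share groups and whole-array shifts.

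Among the 5 genes that rose, the 10 pairwise correlations over the 12 arrays ran from 0.937 to 0.986. As deviations from group means they ran from 0.560 for Ms4a4b with Ms4a6d to 0.908 for Ms4a6c with Ms4a6d, and from 0.320 to 0.949 on the 10 arrays low in Glycam1. Each gene's nearest patterns, 5 for each, were ranked by Pearson correlation over the same 12 arrays. The ranking took the genes measured but left out predicted and unnamed ones, such as those with Gm and Rik symbols. Ms4a6c had Ms4a6d (0.986) and Ms4a6b (0.982) first, followed by Msr1, Gla and Pstpip1. Ms4a6d had Msr1, a macrophage scavenger receptor (0.992), then Ms4a6c, Cfb, Ly6e and Ifitm3. Ms4a6b had Cd180 (0.986), Pstpip1, Ms4a6c, Lgals3bp and Psmb9.

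Ms4a4c was most like Fcgr4, an IgG receptor of myeloid cells (0.992), then Psmb8, Irf7, Cfb and Timp1. Fcgr4 differed from untreated skin by 0.56, 3.73 and 4.66 at the 3 times, and Irf7, a transcription factor of the interferon response, by 0.58, 3.32 and 3.71, beside 0.42, 3.85 and 4.48 for Ms4a4c. Ms4a4b was most like Slfn1 (0.974), Sdc3, Ifitm3, Ptprc and Ms4a6c. Its list kept the fewest names: without the arrays high in Glycam1 it shared 0 of 5 names with this one, against 4 of 5 for Ms4a4c and Ms4a6d, 3 for Ms4a4a and Ms4a7, and 2 for Ms4a6b and Ms4a6c. Ms4a4a was most like Hapln4 (0.940), Ccl8, Fcgr2b, Marchf1 and Lamp2, and Ms4a7 most like Leprotl1 (0.942), Lipa, C4a, Cd84 and Capg. Neither list holds another MS4A gene, and the list of Ms4a4c, which rose most, holds none either.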

How the data were processed

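RNA from 12 skin biopsies was hybridised to 1-colour arrays. Per the submitters' processing notes the authors ran RMA (Affymetrix Expression Console 1.1), and the deposited table gives log2 intensities. The table held 35556 probe sets (values 0.65 to 14.11, array medians 5.53 to 5.76) and no detection calls, and the number of arrays limits the precision. Of the probe sets 21789 had 1 gene symbol, 1621 several and 12146 were not listed; for the 999 genes with several probe sets the highest mean was kept. The symbols Chi3l3 and Emr1 were renamed Chil3 and Adgre1.

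All 4 groups were fitted together with limma 3.58.1 in R 4.3.3 (8 residual and 5.24 prior degrees of freedom, two-sided tests), after a run on simulated data. An exact permutation test of 3 against 3 arrays cannot go below 0.1 and was not used. All 7 genes were named, with up to 3 genes of a marker list by size of change and the 5 nearest patterns of each. Deviations of same-numbered arrays correlated weakly, at -0.0658 to 0.334, -0.215 to 0.162 and -0.185 to 0.219 for numbers 1, 2 and 3. Numbers were therefore not used as pairs in the main fit. Both arrays high in Glycam1 carry number 1, the number with the highest correlation. Promoters were aligned globally with Biopython 1.88 (match 2, mismatch -1, gap opening -5, extension -0.5). The members and lists were chosen with earlier results of these data known. The 25 alternatives were a replicate block, each array left out, the arrays high in Glycam1 left out, other scalings, filters, floors, weights, fits and thresholds.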

Additional observations from a re-analysis of the deposited data

Results flagged for a closer look

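The change against untreated skin differed between times for 5 genes, by a test of the difference itself in limma. At 6 h against 1.5 h the log2 difference was 1.45 for Ms4a4b (adjusted p = 0.0222), 3.43 for Ms4a4c (2.58e-05), 0.86 for Ms4a6b (0.0238), 0.84 for Ms4a6c (0.0151) and 1.27 for Ms4a6d (0.0108). At 24 h against 1.5 h it was 1.92 for Ms4a4b (0.00950), 4.06 for Ms4a4c (1.09e-05), 1.70 for Ms4a6b (0.000420), 1.40 for Ms4a6c (0.000782) and 1.94 for Ms4a6d (0.000892). At 24 h the 3 arrays lay above all 1.5 h arrays for all 5 genes. At 6 h they did so for 4 of the 5, and for Ms4a4b the first 1.5 h array (6.00), which was high in Glycam1, lay above the third 6 h array (5.95).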

How the results depend on the processing

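The calls of Ms4a4c, Ms4a6b, Ms4a6c and Ms4a6d at 6 h and 24 h held under every alternative run. Ms4a4b lost its 6 h call with the floor of 5 (1.52; adjusted p = 0.0599) and could not be tested among genes above the median level, where 4 members were called. Of the alternative values of called changes of the 7 genes 474 kept the call, 22 lost it and 0 changed sign. With the replicate block the members called were 5 at 6 h, at 24 h, at 6 h against 1.5 h and at 24 h against 1.5 h, and 0 at 1.5 h and at 24 h against 6 h, as without it; other named genes lost 2 calls with it, Ms4a8a at 6 h (0.80; adjusted p = 0.0588) and Retnlg at 1.5 h (1.40; 0.0510), and 2 partner genes were called at 24 h. At 6 h against 1.5 h the count of 5 was 2 with the floor, 1 at an adjusted p under 0.01, 3 with a log2 change of at least 1, and 2 to 5 with single arrays left out. At 24 h against 6 h the count of 0 was 2 without the arrays high in Glycam1, 1 with arrays centred on their medians, 1 among genes above the median, and 0 to 1 with single arrays left out. For the F test the count of 5 was 5 to 6 with single arrays left out. Signs turned in uncalled values of Ms4a4a and Ms4a7. Ms4a4a at 1.5 h was 0.08 with median centring, 0.03 with quantile normalization and 0.00 with cyclic loess, and -0.17 to 0.16 with single arrays left out; at 24 h against 6 h it was -0.25 to 0.14. Ms4a7 ran from -0.07 to 0.47 at 1.5 h, -0.18 to 0.33 at 6 h and -0.40 to 0.08 at 6 h against 1.5 h with single arrays left out, was -0.09 at 6 h without the arrays high in Glycam1, and 0.00 at 6 h against 1.5 h with cyclic loess. Ms4a3 at 1.5 h was 0.00 with the floor. Over all genes the count was 439 at 1.5 h (65 to 696 over the alternatives), 1215 at 6 h (325 to 1703) and 670 at 24 h (292 to 866); it was 2646 at 6 h against 1.5 h (395 to 4609), 685 at 24 h against 6 h (135 to 1133), 580 at 24 h against 1.5 h (232 to 751) and 2274 at any time (733 to 3386). Of 1090 values of other named genes, 164 lost their call, and of 825 list counts 128 moved by over 1.5 times. The causes were not tested. With 3 arrays a group and no detection calls, small changes and low levels are limited.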
